A study of Mus musculus with 54 samples.

Results

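Genes that mark progenitor domains along the dorsoventral axis of the embryonic spinal cord were followed at the RNA level through retinoic acid differentiation of mouse embryonic stem cells. The 10 genes, Pax3, Pax7, Pax6, Dbx1, Dbx2, Irx3, Irx5, Nkx6-1, Nkx2-2 and Shh, were chosen by symbol, and all 10 were among the 21960 genes of the expression table. R1, a mouse embryonic stem cell line, formed embryoid bodies over 48 h in hanging drops, which were cultured for up to 20 days in medium that, per the labels, held 0.5 mM retinoic acid and was renewed each day. The polyA RNA libraries numbered 7, 3, 3, 5 and 4 on days 0, 2, 4, 10 and 20. The labels call every sample mouse embryonic stem cell, name no culture without retinoic acid, and do not say whether day 0 was taken before or after aggregation, so each comparison is between days and time and treatment cannot be told apart.

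In the embryonic spinal cord, dividing progenitors are arranged in bands from the roof plate to the floor plate, and each band is marked by a combination of transcription factors, most of them homeodomain proteins. Shh, secreted from the notochord and floor plate, induces the ventral factors and represses the others, while signals from the roof plate favour the dorsal factors and retinoic acid from the neighbouring somites supports the intermediate ones. Several of the factors repress each other across a band's border, which sharpens the bands, and each band then gives rise to its own class of neurons and, later, to glia.

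Levels are given as FPKM, read numbers scaled to transcript length and to the mapped reads of a library, which allows levels of different genes to be set side by side per length. Changes are differences in log2(FPKM + 1), estimated with limma over all 22 libraries, and a change counted as called where its adjusted p (Benjamini-Hochberg, over the 14982 genes that reached 1 FPKM in at least 3 libraries) was under 0.05. Of the 10 genes, 9 passed that filter and Pax7 did not. Separate cultures behind the libraries of a day are not named by the labels, so these p-values measure the spread between libraries only. In bulk RNA, fewer cells of a type and less RNA per cell cannot be told apart.

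RefSeq's promoter table for mouse (build GRCm38.p6) matched 7 of the 10 genes, with 8 start sites. The 250 bases before the start are given for Dbx1, Irx3 and Pax6, whose RNA peaked together on day 2 and then declined, and for Dbx2, which took the opposite course after day 4. All are written 5′ to 3′ on the gene's strand, and capitals mark matches on either strand to TATAAA (the TATA box), GGGCGG (the GC box, CCGCCC where it lies on the other strand) or CCAAT (the CCAAT box, a motif chosen after the sequences were seen).
Dbx1 (chr7:49636836-49637085, minus strand): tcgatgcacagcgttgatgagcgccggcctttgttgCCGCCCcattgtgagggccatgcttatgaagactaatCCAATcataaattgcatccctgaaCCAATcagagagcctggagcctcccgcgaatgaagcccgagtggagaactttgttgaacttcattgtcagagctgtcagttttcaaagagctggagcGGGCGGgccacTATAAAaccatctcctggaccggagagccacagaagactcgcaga
Irx3 (chr8:91801655-91801904, minus strand): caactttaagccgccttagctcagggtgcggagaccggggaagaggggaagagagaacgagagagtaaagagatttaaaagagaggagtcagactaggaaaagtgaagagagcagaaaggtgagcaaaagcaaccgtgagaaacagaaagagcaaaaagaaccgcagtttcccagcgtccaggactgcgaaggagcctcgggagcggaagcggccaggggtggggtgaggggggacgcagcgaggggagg
Pax6 (chr2:105668646-105668895, plus strand): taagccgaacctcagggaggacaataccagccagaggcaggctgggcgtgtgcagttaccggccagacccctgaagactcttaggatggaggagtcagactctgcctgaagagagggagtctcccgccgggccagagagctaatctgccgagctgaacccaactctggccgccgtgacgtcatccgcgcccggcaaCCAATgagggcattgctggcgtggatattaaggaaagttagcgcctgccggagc
Dbx2 (chr15:95654772-95655021, minus strand): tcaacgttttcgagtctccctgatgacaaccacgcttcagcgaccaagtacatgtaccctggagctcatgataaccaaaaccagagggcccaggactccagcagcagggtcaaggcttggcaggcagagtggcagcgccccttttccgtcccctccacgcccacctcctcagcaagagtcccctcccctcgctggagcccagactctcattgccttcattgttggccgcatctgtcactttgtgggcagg
The Dbx1 window held a TATAAA that began 45 bases before the start, a GGGCGG match on each strand and 2 CCAAT matches. The Pax6 window shown held 1 CCAAT, 54 bases before the start, and neither the Irx3 nor the Dbx2 window matched any of these letters. Over all 32851 promoter windows of the same length, 12.4% held TATAAA, 32.7% held GGGCGG and 33.8% held CCAAT. Further motifs were searched. The core bound by many homeodomain proteins, TAATTA (4.84% of all windows), AGGTCA, the core bound by retinoic acid receptors (14% of all windows), and GACCACCCA, the site bound by GLI proteins (0.225% of all windows), matched none of the 8 windows on either strand. GC content was 52.8% for Dbx1, 56% for Irx3, 60.8% for the Pax6 window shown and 58.8% for Dbx2, with a median of 52.4% over all windows. The window of the other Pax6 start site (chr2:105682213-105682462) had 47.6% and matched none of the motifs searched. These are matches of letters in a short window and show nothing about binding.

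The libraries of a day were alike: their log2 values correlated at 0.9896 to 0.9982 across genes within a day, and no 2 columns were identical. Summed FPKM ranged from 472122 to 678222, and 16131 to 17948 genes were above 0. FPKM keeps no read counts, so the depth behind a value is unknown and values under about 1 FPKM may rest on few reads. The 8 pluripotency markers summed to 4772 to 5077 FPKM at day 0 and 62.4 to 64.3 at day 4. The 8 neural progenitor markers (Sox1, Sox2, Nes and others) all had a day mean of 1 FPKM or more from day 2 onward. At day 0 this held for 6 of 8, among them Sox2, at 245 FPKM.

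The 10 genes peaked on 3 different days. Pax3, Pax6, Dbx1 and Irx3 were highest at day 2, Pax7, Irx5 and Nkx6-1 at day 4, and Dbx2, Nkx2-2 and Shh at day 20. Dorsal and most intermediate factors had declined by day 10, whereas the ventral genes Nkx2-2 and Shh rose at each step after day 2 (Shh not from day 4 to day 10 after quantile normalization). The other ventral gene, Nkx6-1, fell 7.54-fold from day 4 to day 10 and rose again to day 20.

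**Figure D1:**
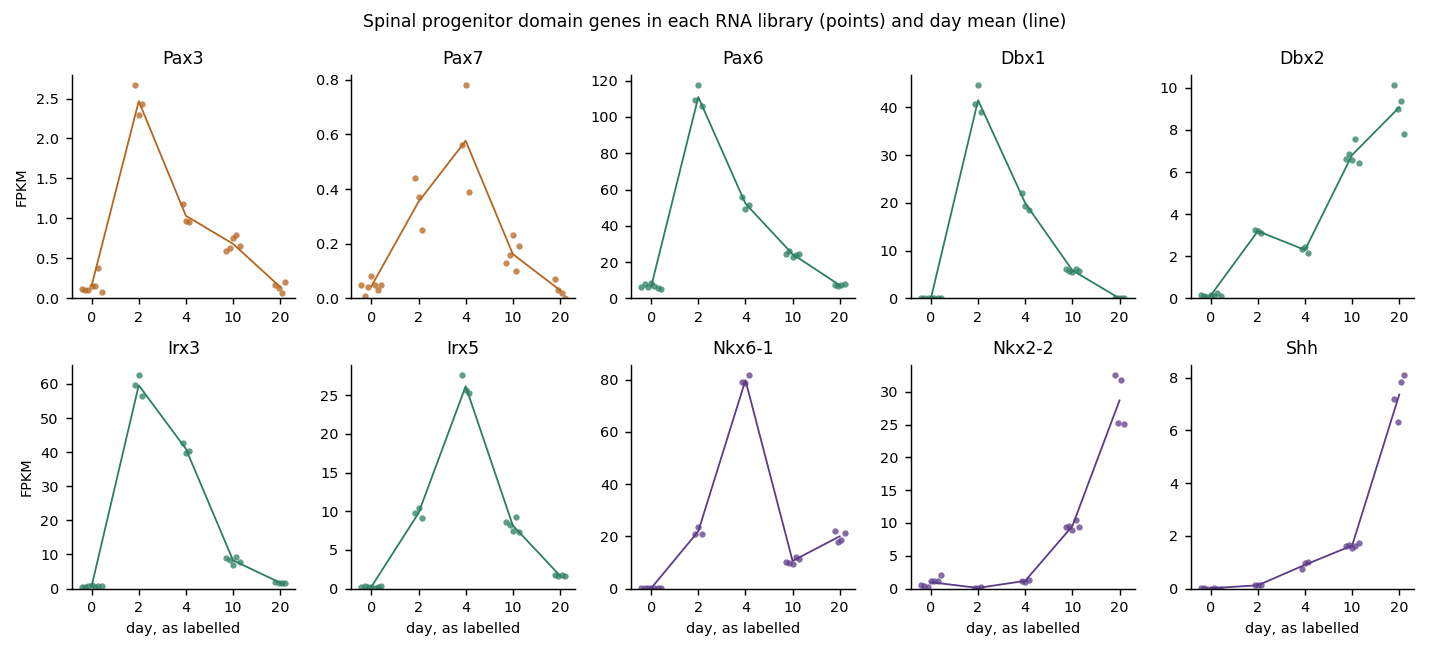
FPKM of each of the 10 genes (vertical axes, each from 0 and with its own scale) in every RNA library, by the day on the label (horizontal axis, not to scale); points are libraries and the line joins the day means, in brown for dorsal, green for intermediate and purple for ventral genes. Pax6 stood near 111 FPKM at day 2 and 7.23 at day 20, while Nkx2-2 stood at 0.0933 at day 2 and 28.7 at day 20.

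Pax3 and Pax7 encode paired-box factors of the dorsal progenitors, and both are also used by neural crest and skeletal muscle precursors. Pax3 read between 0.08 and 0.38 FPKM in the 7 day-0 libraries, with a median of 0.12. It read 2.67, 2.3 and 2.43 at day 2, then 1.18, 0.97 and 0.95 at day 4. At day 10 it lay between 0.59 and 0.79, and at day 20 between 0.07 and 0.2. No library of day 2 overlapped any other day, and days 0 and 20 overlapped each other. Pax3 rose by 1.59 ± 0.07 (log2, SE) from day 0 to day 2 (adjusted p = 4.575e-15), then fell by 0.77 ± 0.08 to day 4, by 0.27 ± 0.07 to day 10 (adjusted p = 0.001662) and by 0.56 ± 0.07 to day 20. Day 20 differed from day 0 by -0.02 (95% interval -0.14 to 0.11, adjusted p = 0.8114), and was called lower after quantile normalization (-0.29, adjusted p = 0.001902). Day 10 was called above day 0 (0.54, adjusted p = 9.043e-09), but not after quantile normalization (0.16, adjusted p = 0.05085).

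Pax7 stayed under 1 FPKM in every library. Its day means were 0.0443 ± 0.0215 (SD, n = 7), 0.353 ± 0.0961 (n = 3), 0.577 ± 0.196 (n = 3), 0.162 ± 0.0507 (n = 5) and 0.03 ± 0.0294 (n = 4) over days 0, 2, 4, 10 and 20. The libraries of days 2 and 4 overlapped, and both lay above all libraries of the other days. With no filter on low values, limma over 21960 genes gave Pax7 changes of 0.37, 0.22, -0.43 and -0.17 for the 4 steps, with adjusted p from 2.552e-06 to 0.008783.

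Markers of the other tissues that use these factors were measured beside them. The 8 skeletal muscle markers summed to 5.16 to 6.89 FPKM at day 0, 6.09 to 7.69 at day 2 and 1.19 to 1.71 at day 4. At day 2, 2 of 8 were at 1 FPKM or more. Myod1 and Myf5, the defining factors of skeletal muscle, were at or below 0.04 in all 3 day-2 libraries. Meox1, a somite gene of that list named here after its values were seen, averaged 0.227 FPKM at day 0, 2.36 at day 2 and 0.103 at day 4, highest on the same day as Pax3. The 8 neural crest markers summed to 42.4 to 48.7 FPKM at day 0, 10.46 to 10.97 at day 2 and 19.03 to 20.71 at day 4. Of the 8, 2 were at 1 FPKM or more at day 2 and 3 at day 4. The part of these tissues in the Pax3 and Pax7 levels was not tested.

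The intermediate group was the most abundant of the 10 genes early on. Pax6, a paired-box homeodomain factor of neural progenitors across most of the ventral and intermediate spinal cord, was the only one of the 10 with a day-0 mean above 1 FPKM: its day-0 libraries ranged from 5.07 to 8.32 with a median of 6.08. At day 2 it reached 109, 118 and 106 FPKM, at day 4 it read 55.95, 49.4 and 51.4, at day 10 between 22.7 and 26.1, and at day 20 it was 7.46, 6.61, 7.19 and 7.66. Neighbouring days did not overlap until day 20, which lay inside the day-0 range. The rise to day 2 was 17.0-fold in the means (log2 3.91 ± 0.09, adjusted p = 2.203e-19), and the 3 later steps lowered Pax6 by 2.12-fold, 2.15-fold and 3.37-fold, each called. Day 20 against day 0 was not called (0.14, 95% interval -0.03 to 0.32, adjusted p = 0.116). That comparison depended on scaling, since limma called it 0.35 higher after all libraries were given the same sum and 0.67 lower (log2 -0.67) after quantile normalization.

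Dbx1, which marks the progenitors at the middle of the axis, was high at day 2 and listed at 0 at day 20. It was at or below 0.04 FPKM in all 7 day-0 libraries, with a median of 0. The 3 day-2 libraries read 40.73, 44.6 and 39.1, and the 3 day-4 libraries 22.1, 19.3 and 18.5. By day 10 the 5 libraries lay between 5.55 and 6.19, and in all 4 day-20 libraries Dbx1 was listed at 0. From day 2 onward no library of one day overlapped a library of another. On the log2 scale Dbx1 fell by 1.02 ± 0.06 from day 2 to day 4, by 1.61 ± 0.06 to day 10 and by 2.78 ± 0.05 to day 20 (adjusted p = 3.825e-21). Its rise from day 0 to day 2 was 5.39 ± 0.05 (adjusted p = 1.529e-25).

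Dbx2, the paralog of Dbx1, is found in a wider band around the same position. It read between 0.08 and 0.24 FPKM at day 0 (median 0.13). It stood at 3.26, 3.22 and 3.1 at day 2 and at 2.33, 2.42 and 2.15 at day 4. The 5 day-10 libraries then read 6.61, 6.87, 6.56, 7.58 and 6.45, and the 4 day-20 libraries 10.13, 8.99, 9.37 and 7.81. All 5 days were separate, and the order of the levels was day 20, 10, 2, 4 and 0, each pair of neighbours called. Dbx2 rose by 1.24 ± 0.07 from day 4 to day 10 (adjusted p = 3.642e-13) and by 0.36 ± 0.06 from day 10 to day 20 (adjusted p = 1.995e-05). Its small fall from day 2 to day 4 (-0.35 ± 0.08, adjusted p = 0.0003362) was not called once libraries had been given the same sum (-0.13, adjusted p = 0.09633).

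Irx3 and Irx5 are neighbouring Iroquois homeodomain genes whose products mark intermediate and dorsal progenitors and oppose the motor neuron factor Olig2. Irx3 ranged from 0.51 to 0.97 FPKM at day 0 (median 0.62). It rose to 59.65, 62.5 and 56.6 at day 2 and read 42.7, 39.7 and 40.5 at day 4. Day 10 gave 6.9 to 9.17 and day 20 gave 2, 1.53, 1.71 and 1.57, with no overlap between any 2 days. Its largest fall was from day 4 to day 10, 4.95-fold in the means (log2 -2.18 ± 0.09, adjusted p = 5.007e-15). Irx3 at day 20 was 0.70 above day 0 on the log2 scale, but 0.38 below it (log2 -0.38) after quantile normalization, each called.

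Irx5 peaked later than Irx3. It ranged from 0.13 to 0.34 FPKM at day 0 (median 0.21), and read 9.74, 10.4 and 9.13 at day 2 and 27.6, 25.7 and 25.2 at day 4. At day 10 the libraries lay between 7.28 and 9.23, and at day 20 they were 1.69, 1.65, 1.72 and 1.65. From day 2 to day 4, when Irx3 fell by 0.53 ± 0.10 (adjusted p = 0.0001069), Irx5 rose by 1.34 ± 0.08 (adjusted p = 1.735e-12). The libraries of days 2 and 10 overlapped; limma called day 10 lower (-0.23, adjusted p = 0.004664), the call was lost with a pseudocount of 0.1, and the sign turned with libraries of the same sum (0.18, adjusted p = 0.02055).

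Nkx6-1 encodes a homeodomain factor of the ventral progenitors that give rise to motor neurons and neighbouring interneurons. It ranged from 0.07 to 0.18 FPKM at day 0 (median 0.09). It read 21.07, 23.65 and 21.07 at day 2, 79.2, 78.5 and 81.6 at day 4, then 10.2, 9.7, 9.24, 12.25 and 11.5 at day 10 and 22.15, 18.0, 18.5 and 21.4 at day 20. The day-4 libraries stood far above all others, and days 2 and 20 overlapped. Nkx6-1 fell 7.54-fold from day 4 to day 10 (log2 -2.81 ± 0.08, adjusted p = 4.889e-18) and rose again 1.89-fold to day 20 (log2 0.86 ± 0.07, adjusted p = 6.829e-10). Days 2 and 20 did not differ beyond their spread (-0.13, 95% interval -0.30 to 0.04, adjusted p = 0.1515), though day 20 was called lower after quantile normalization (-0.41, adjusted p = 0.0005064).

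Nkx2-2 marks the most ventral progenitors next to the floor plate and later oligodendrocyte precursors. Its day-0 libraries ranged from 0.28 to 2.02 FPKM with a median of 1.14, and its day-2 libraries read 0.06, 0.04 and 0.18, below all of them. It stood at 1.19, 0.98 and 1.35 at day 4. The 5 day-10 libraries gave 9.41, 9.54, 8.88, 10.4 and 9.38, and the 4 day-20 libraries 32.5, 25.3, 31.8 and 25.1. Days 4, 10 and 20 were separate, whereas day 4 lay inside the day-0 range. Nkx2-2 rose 8.12-fold from day 4 to day 10 (log2 2.28 ± 0.19, adjusted p = 7.628e-10) and 3.01-fold from day 10 to day 20 (log2 1.49 ± 0.18, adjusted p = 1.575e-07).

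Nkx2-2 was also the only one of the 10 genes that fell from day 0 to day 2 (log2 -0.79 ± 0.18, adjusted p = 0.0006175). The size of that fall rested on which day-0 libraries were used. Day-0 replicates 1 to 3 read 0.28 to 0.61 and replicates 4 to 7 read 1.14 to 2.02. No label accounts for this split, and none of the other 9 genes showed it. Outside the 10 genes, some marker sums were split between the same sets of replicates, as given above. Against replicates 1 to 3 alone the fall was -0.35 (adjusted p = 0.006868). Day 4 did not differ from day 0 (0.20, 95% interval -0.18 to 0.59, adjusted p = 0.3127), but was called higher than replicates 1 to 3 (0.64, adjusted p = 3.065e-05).

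Shh itself appeared late and at a low level. It was listed at 0 to 0.03 FPKM at day 0 (median 0) and at 0.12, 0.12 and 0.13 at day 2. The day-4 libraries read 0.75, 0.96 and 0.99, and the 5 day-10 libraries 1.61, 1.66, 1.54, 1.63 and 1.72. Day 20 gave 7.2, 6.31, 7.85 and 8.09, and no 2 days overlapped. From day 10 to day 20 Shh rose 4.51-fold (log2 1.66 ± 0.06, adjusted p = 5.985e-17). The day-4 to day-10 rise (0.47 ± 0.06, adjusted p = 3.873e-07) was absent after quantile normalization (-0.05, adjusted p = 0.5201). The day-2 rise (0.15 ± 0.06, adjusted p = 0.02096) was not called without any 1 of the day-2 libraries (adjusted p from 0.05016 to 0.06061) or against day-0 replicates 1 to 3 (adjusted p = 0.08477).

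Many markers of other cell types rose together with Nkx2-2 and Shh. The 8 oligodendrocyte markers summed to 364 to 422 FPKM at day 10 and 1804 to 2829 at day 20, with 8 of 8 at 1 FPKM or more on both days. Mbp, which encodes a myelin protein, averaged 1645 at day 20. From day 10 to day 20, 7 of the 8 were called higher and 1 lower, against 37.2% and 38.1% of all tested genes. Pdgfra of that list averaged 52.5 FPKM at day 10 and 35.3 at day 20. The 8 astrocyte markers summed to 67.0 to 77.7 FPKM at day 4, with 4 of 8 at 1 FPKM or more. They summed to 636 to 692 at day 10 and 2145 to 2320 at day 20, with 8 of 8. Of these 8, 6 were called higher and 2 lower from day 10 to day 20. Gfap averaged 1413 FPKM at day 20, whereas Aldh1l1 fell from 87.3 to 63.1 and Slc1a3 from 151.5 to 79.1. The 12 endoderm and epithelium markers summed to 334 to 381 FPKM at day 10, with 10 of 12 at 1 FPKM or more, and to 4794 to 5580 at day 20, with 12 of 12. Tff1, a secreted gut peptide, held 3274 ± 342 FPKM of the day-20 sum (SD, n = 4), and Krt5, a keratin of stratified epithelium, 181 ± 27.0. Shh is also made by gut and skin epithelium. Of the 8 pancreatic islet markers, a tissue that uses Pax6, Nkx2-2 and Nkx6-1, 4 had a day-20 mean of 1 FPKM or more and the sum was 45.5 to 82.4, against 58.1 to 63.4 at day 10. Gcg, which encodes glucagon, averaged 33.7 ± 15.1 FPKM at day 20, whereas the insulin genes Ins1 and Ins2 averaged 0.208 and 0.0625. The part of these cell types in the day-20 levels of Nkx2-2, Nkx6-1 and Shh was not tested.

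**Figure D2:**
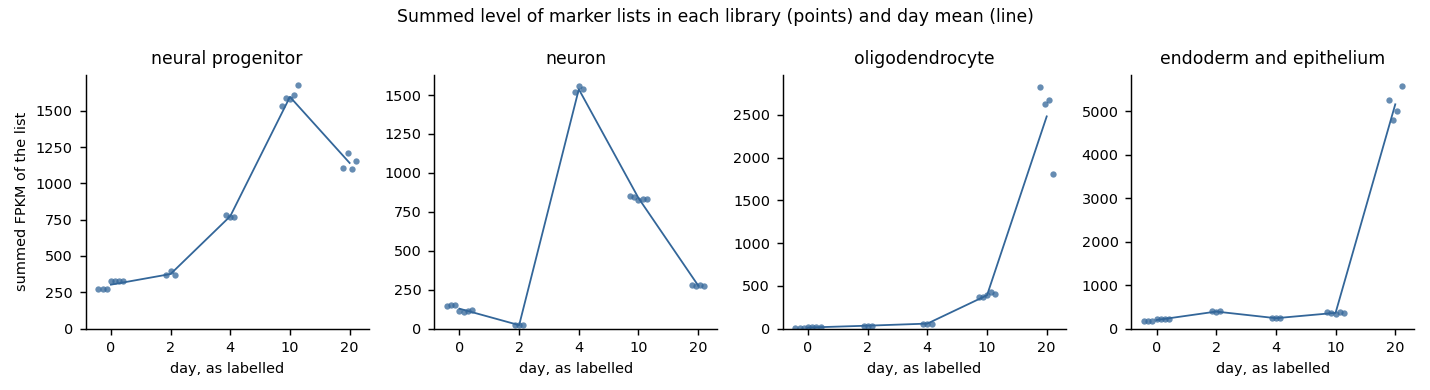
Summed FPKM of 4 marker lists (vertical axes, each from 0 and with its own scale) in every library by labelled day (horizontal axis, not to scale); points are libraries and lines join day means. The neuron markers peaked at day 4 (1520 to 1555 FPKM), and the oligodendrocyte (1804 to 2829) and endoderm and epithelium markers (4794 to 5580) at day 20.

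Across the steps, all 9 tested genes were called each time, in changing proportions of higher and lower. From day 0 to day 2, 8 of 9 rose and 1 fell, with 42% of all tested genes called higher and 32.1% lower. From day 2 to day 4, 4 of 9 rose (Irx5, Nkx6-1, Nkx2-2 and Shh) and 5 fell, against 38% higher and 34% lower over all genes. From day 4 to day 10, 3 of 9 rose (Dbx2, Nkx2-2 and Shh) and 6 fell, against 41.4% and 32.3%. From day 10 to day 20, 4 of 9 rose (Dbx2, Nkx6-1, Nkx2-2 and Shh) and 5 fell, against 37.2% and 38.1%. The median change of the 9 genes was 3.13, -0.35, -1.07 and -0.56 at the 4 steps, and over all genes it was 0.07, 0.01, 0.07 and -0.02. For 9 of 9 genes the earlier and later libraries were separate at each step, but how many of all genes were separate was not counted. Since most genes were called at each step, being called is not particular to the 9.

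**Figure D3:**
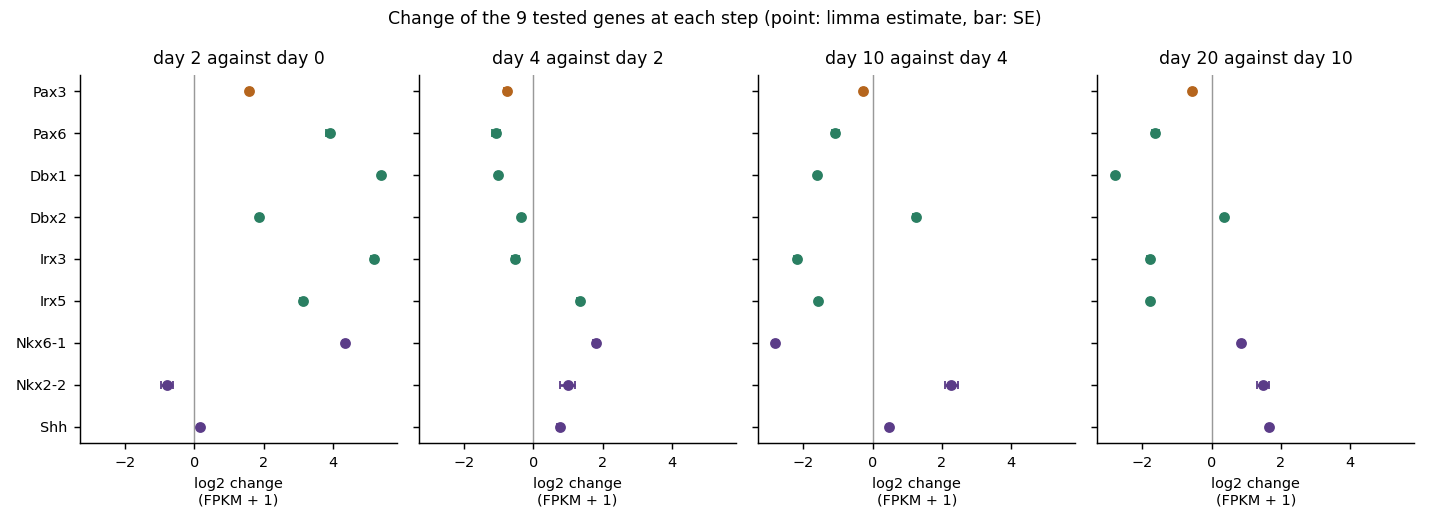
Change in log2(FPKM + 1) of the 9 tested genes (horizontal axis) at each of the 4 steps between neighbouring days; points are limma estimates, bars are 1 SE (mostly smaller than the point), and the vertical line marks no change. Dbx2, Nkx2-2 and Shh lie to the right of the line at both of the last 2 steps; the day-10 rise of Shh was absent after quantile normalization.

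Giving all libraries the same sum moved the balance of calls over all genes. The share of calls that were higher went from 52.79% to 68.6% from day 2 to day 4, from 56.21% to 66.49% from day 4 to day 10, and from 49.4% to 37.09% from day 10 to day 20. The median over all genes moved with it, to 0.23, 0.20 and -0.18, and quantile normalization also lowered the last of these, to -0.12. Under the same-sum scaling the 9 genes gave 4 higher and 4 lower, 3 higher and 6 lower, and 4 higher and 5 lower at these steps. Quantile normalization moved the medians at the day-4 and day-10 steps the other way, to -0.07 and -0.04, with 44.36% and 47.4% of calls higher, and gave 40.73% at the day-20 step.

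Whether related genes changed by the same amount was tested with ratios inside a library, in which scaling between libraries cancels above the pseudocount. The log2 ratio of Dbx1 to Dbx2 was 3.34 ± 0.08 at day 2 (SD, n = 3) and 2.66 ± 0.12 at day 4 (n = 3), then -0.19 ± 0.06 on day 10 (n = 5) and -3.33 ± 0.14 on day 20 (n = 4). Dbx1 was thus the more abundant of the pair at days 2 and 4 and Dbx2 at day 20, and both steps differed by an exact 2-sided permutation test (p = 0.0179, adjusted over 8 ratio tests 0.0238, and p = 0.00794, adjusted 0.0212). These are the smallest p-values that 3 against 5 and 5 against 4 libraries can give.

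The ratio of Nkx6-1 to Nkx2-2 fell at both tested steps. It was 5.22 ± 0.10 at day 4 (n = 3), 0.13 ± 0.11 at day 10 (n = 5) and -0.49 ± 0.22 at day 20 (n = 4), with adjusted p = 0.0238 and 0.0212 by the exact permutation test. In 3 of 3 day-4 libraries Nkx6-1 was above Nkx2-2, and in 4 of 4 day-20 libraries below it.

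Irx3 and Irx5 came together and stayed so. Their ratio was 2.49 ± 0.02 at day 2 (n = 3) and 0.63 ± 0.03 at day 4 (n = 3), then 0.01 ± 0.08 on day 10 (n = 5) and 0.01 ± 0.10 on day 20 (n = 4). The fall from day 4 to day 10 passed the exact permutation test (adjusted p = 0.0238). The later difference, -0.00443, did not (adjusted p = 0.944), and the libraries of days 10 and 20 spanned -0.11 to 0.11 and -0.07 to 0.16.

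The ratio of Pax3 to Pax7 fell from 0.53 ± 0.10 at day 10 to 0.15 ± 0.08 at day 20 (exact permutation test, adjusted p = 0.0212), and its difference between days 4 and 10, 0.16, did not pass (adjusted p = 0.102). Both genes were under 1 FPKM at days 10 and 20, where the pseudocount of 1 sets much of the ratio: with 0.1 the first difference was not called and the second was.

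**Figure D4:**
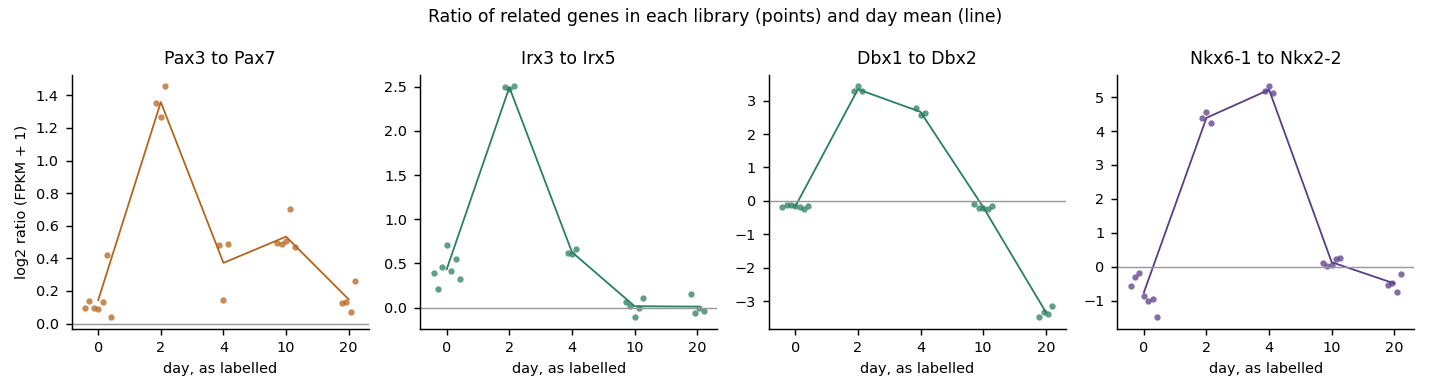
log2 ratio of (FPKM + 1) of 4 pairs of related genes (vertical axes, own scale each) in every library by labelled day (horizontal axis, not to scale); points are libraries, lines join day means, and the grey line marks equal levels. The Dbx1 to Dbx2 ratio goes from 3.34 at day 2 to -3.33 at day 20, while Irx3 to Irx5 lies around 0.01 at days 10 and 20.

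As a share of the summed FPKM of the 10 genes, a summary chosen after the values were seen and given with no test, Nkx6-1, Nkx2-2 and Shh held 8.86% ± 0.225 (SD, n = 3) of the day-2 sum, 36.4% ± 1.495 on day 4, 28.6% ± 1.31 on day 10 and 73.8% ± 0.971 on day 20. Pax6, Dbx1, Dbx2, Irx3 and Irx5 held 90.01%, 62.9%, 70.3% and 26.0% on the same days. Pax3 and Pax7 held at most 1.40% in any library from day 2 onward. The 5 intermediate genes summed to 214 to 239 FPKM at day 2 and 18.7 to 21.3 at day 20, and the 3 ventral genes to 21.3 to 23.8 and 49.5 to 61.9.

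Hedgehog signalling genes were followed beside Shh. Hedgehog ligands bind the receptor Ptch1, which releases Smo and activates the Gli factors, and Ptch1, Gli1 and Hhip are themselves target genes of the pathway. Of 17 listed genes 16 were tested, Dhh being the exception. From day 0 to day 2, 14 rose and 0 fell. The next step had 5 higher and 9 lower, the day-10 step 4 higher and 8 lower, and the day-20 step 4 higher and 7 lower. Over all tested genes, 42%, 38%, 41.4% and 37.2% were called higher at the 4 steps and 32.1%, 34%, 32.3% and 38.1% lower. Their median changes were 1.08, -0.32, -0.19 and -0.10. Quantile normalization gave 2 higher and 10 lower at the day-4 step and 3 higher and 11 lower at the day-10 step.

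The ligand Ihh was more abundant than Shh on every day. Its day means were 0.87 ± 0.555 FPKM (SD, n = 7, split by replicate as given above), 19.7 ± 1.12 (n = 3), 16.1 ± 1.04 (n = 3), 30.6 ± 3.42 (n = 5) and 61.3 ± 7.24 (n = 4). It rose by 3.53 ± 0.19 from day 0 to day 2 (adjusted p = 2.433e-13), by 0.88 ± 0.20 from day 4 to day 10 (adjusted p = 0.0004657) and by 0.98 ± 0.18 to day 20 (adjusted p = 5.682e-05). Ihh is the hedgehog ligand of gut epithelium and cartilage, and the endoderm and epithelium markers rose beside it at days 2, 10 and 20. At day 0 they summed to 167 to 173 FPKM in replicates 1 to 3 and to 209 to 224 in replicates 4 to 7. At day 2 they summed to 374 to 400. Of the 12, 8 had a mean of 1 FPKM or more at day 0 and 10 at day 2. At the 4 steps 9, 0, 8 and 9 of 12 were called higher and 2, 9, 0 and 1 lower. Over all tested genes, 42%, 38%, 41.4% and 37.2% were called higher and 32.1%, 34%, 32.3% and 38.1% lower. The part of endoderm and epithelium cells in the Ihh level was not tested.

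The target genes Gli1, Ptch1 and Hhip were highest at day 2 or day 4, before the day-20 peak of Shh. Gli1 averaged 5.92 ± 0.648 FPKM at day 0 and 20.5 ± 0.421 at day 2. It then averaged 6.42 ± 0.0777 at day 4, followed by 2.73 ± 0.279 (day 10) and 2.8975 ± 0.519 (day 20). It fell by 1.54 ± 0.10 from day 2 to day 4 (adjusted p = 1.677e-11) and by 0.996 ± 0.09 to day 10 (adjusted p = 3.251e-09). From day 10 to day 20, when Shh rose 4.51-fold, Gli1 changed by 0.06 ± 0.09 (adjusted p = 0.5493). Ptch1 averaged 9.26 ± 1.12 FPKM at day 0 and 33.9 ± 1.66 at day 2, when Shh averaged 0.123. From day 2 to day 4, when Shh also rose, Ptch1 rose further (0.28 ± 0.08, adjusted p = 0.004121), to 41.3 ± 0.489 FPKM. Ptch1 fell from 35.2 ± 1.11 at day 10 to 23.4 ± 0.776 at day 20 (log2 -0.57 ± 0.07, adjusted p = 1.078e-07). Its smaller fall from day 4 to day 10 (-0.22, adjusted p = 0.008647) was not called with libraries of the same sum (-0.07, adjusted p = 0.4393). Hhip, which binds and restrains the ligands, rose by 0.75 ± 0.10 to day 2 (adjusted p = 9.622e-07) and by 0.56 ± 0.12 to day 4 (adjusted p = 0.0002697; 0.28, adjusted p = 0.05251 after quantile normalization). It fell by 0.47 ± 0.10 from day 10 to day 20 (adjusted p = 0.000193). Whether Shh or Ihh had a part in the course of these target genes was not tested.

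**Figure D5:**
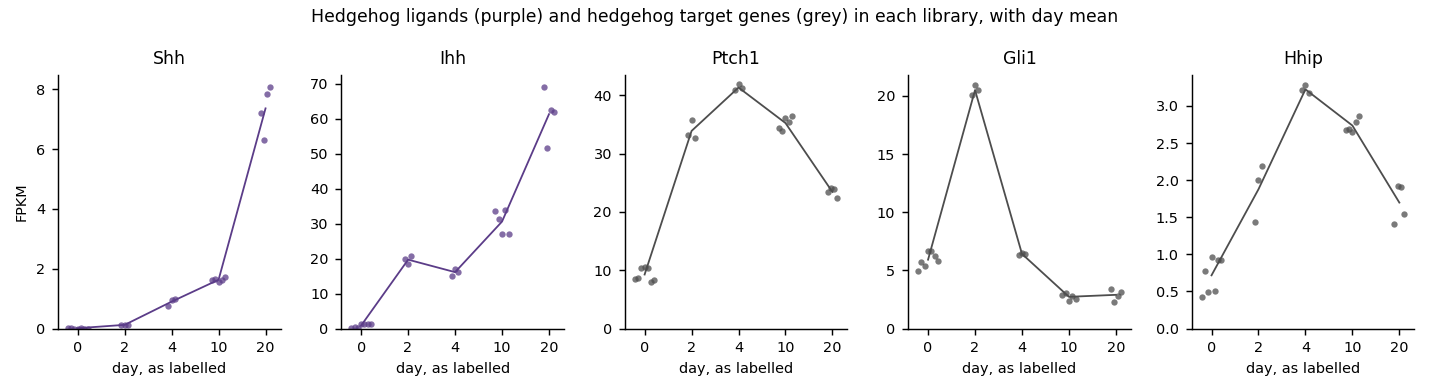
FPKM of the hedgehog ligands Shh and Ihh (purple) and of the target genes Ptch1, Gli1 and Hhip (grey) in every library (vertical axes from 0, own scale each) by labelled day (horizontal axis, not to scale); points are libraries and lines join day means. Shh is highest at day 20 (7.36 FPKM), Gli1 at day 2 (20.5) and Ptch1 at day 4 (41.3).

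Among the receptors' partners, Gas1, a co-receptor, rose from 0.849 to 53.1 FPKM in the means between days 0 and 2 and fell to 14.9 at day 4 (log2 -1.77 ± 0.11, adjusted p = 3.277e-12). Cdon, another co-receptor, fell by 1.40 and Gli3, the main repressor of the pathway, by 1.23 at that step. Smo rose from 26.7 to 43.7 FPKM between days 10 and 20 (log2 0.69 ± 0.07, adjusted p = 1.026e-08).

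Other factors that mark bands of progenitors were counted from a list of 25, of which 19 were tested. At the 4 steps, 16 rose and 1 fell, 10 rose and 7 fell, 5 rose and 8 fell, and 4 rose and 11 fell, with medians of 1.84, 0.34, 0.04 and -0.40. The shares of all genes called higher at these steps were 42%, 38%, 41.4% and 37.2%, and lower 32.1%, 34%, 32.3% and 38.1%. With libraries of the same sum the day-10 step gave 8 higher and 8 lower of 18 tested. Olig2, the motor neuron and oligodendrocyte precursor factor, led the rise to day 2, from 0.0114 to 11.2 FPKM (log2 3.59 ± 0.08, adjusted p = 2.149e-20). The roof plate and dorsal factor Msx1 went from 0.639 to 15.4 FPKM and back to 2.05 at day 4 (log2 -2.43 ± 0.11). Nkx6-2, the paralog of Nkx6-1, rose by 3.21 ± 0.17 to day 2.

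At later steps other genes of the list changed most. Prdm8 rose from 4.27 to 97.3 FPKM between days 2 and 4 (log2 4.23 ± 0.08), then fell by 1.86 to day 10 and by 3.60 to day 20. Prdm12 fell by 2.12 from day 4 to day 10. Pax2 fell from 13.5 ± 0.966 FPKM at day 10 to 0.42 ± 0.0796 at day 20 (log2 -3.35 ± 0.07, adjusted p = 1.325e-20). Lmx1b rose by 1.76 from day 4 to day 10. Sp8 fell by 1.79 and 1.78 at the last 2 steps, and Pax8 by 2.30 at the last.

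Neurons born from these bands were counted from 21 genes, 17 of them tested. At the 4 steps 8 rose and 2 fell, 15 rose and 2 fell, 3 rose and 13 fell, and 1 rose and 12 fell, with medians of 0.14, 2.61, -0.81 and -1.07, against 42%, 38%, 41.4% and 37.2% of all genes called higher and 32.1%, 34%, 32.3% and 38.1% lower. The largest changes at day 4 were in motor neuron and neighbouring interneuron factors: Lhx3 rose from 0.39 ± 0.0755 to 66.9 ± 2.10 FPKM (log2 5.61 ± 0.10, adjusted p = 7.524e-22) and Isl1 from 1.03 ± 0.193 to 69.7 ± 5.47 (log2 5.13 ± 0.15, adjusted p = 6.937e-18). Lhx4 rose by 4.84 and Mnx1 by 4.30. From day 4 to day 10 Isl1 fell by 5.62, Mnx1 fell by 4.33, Lhx4 fell by 4.02 and Lhx3 fell by 3.95. Day 4 was also the day on which Nkx6-1 and Irx5 peaked, and the 8 general neuron markers summed to between 21.4 and 22.2 FPKM at day 2, between 1520 and 1555 at day 4, and between 829 and 851 at day 10. The part of neuron number in these neuron products was not tested.

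From day 10 to day 20 the dorsal neuron factors Lbx1 and Tlx3 fell by 3.21 and 2.33 on the log2 scale, and Foxd3 by 2.33. Mnx1 was the 1 gene of this list that rose at that step, from 1.62 ± 0.107 to 11.4 ± 1.22 FPKM (log2 2.24 ± 0.07, adjusted p = 6.632e-18). Mnx1 is also made in pancreas, whose islet markers are given above, and the part of pancreatic cells in its level was not tested.

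The genes whose course was most like each of the 9 were taken by Pearson correlation of log2(FPKM + 1) over the 22 libraries, among 12425 tested genes outside the 10 with a highest day mean of at least 5 FPKM. The libraries share their days, so these values describe the shape of the course and carry no test. Of these outside genes, Dbx1 was most like Crabp1 (0.985), which encodes a retinoic acid binding protein, then Morf4l2 (0.981) and Smarce1 (0.977). Irx3 was most like Sox3 (0.976), a neural progenitor factor, and Irx5 like Sp8 (0.992), Rbmx (0.991) and Cercam (0.991). Pax6 was most like 3110062M04Rik (0.973), Ilkap (0.972) and Tceal9 (0.970), and Pax3 like Ndufa5 (0.977).

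Among the late genes, Dbx2 was most like Hip1r (0.996), Tmed3 (0.993) and Oaf (0.993). Nkx2-2 was most like Gm13889 (0.993), Ttyh2 (0.991) and Mgll (0.991), and Shh like Prr13 (0.994), Lurap1l (0.994) and Rtp4 (0.993). Nkx6-1 was most like Gadd45g (0.990), H1f0 (0.986) and Plagl2 (0.986). Of the 10 genes among themselves, Pax6 and Dbx1 were most alike (0.993), and Dbx1 and Irx3 reached 0.986.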

How the data were processed

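PolyA RNA from 22 libraries (NEBNext Ultra kit, per the labels' protocols) was quantified by the authors with RSEM on mm9, per the submitters' processing notes. Their versions and settings are not named there. The deposited table gives gene symbols and values read as FPKM from their size and sums, rounded to 0.01, but they could be TPM if more genes were quantified than are listed. FPKM holds no read counts, so depth and counting intervals are not given. The ATAC libraries were not used here.

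Values were analysed as deposited in R 4.3.3 with limma 3.58.1, using log2(FPKM + 1) in 1 group-means model with 17 residual degrees of freedom and the empirical Bayes trend, for genes at 1 FPKM or more in at least 3 libraries. P-values are 2-sided and Benjamini-Hochberg adjusted over the 14982 genes tested. Ratios were tested by exact permutation. The model was tested on simulated data. Named genes were the 10 members, up to 4 called genes with the largest change per step from each of 3 lists (hedgehog signalling, other domain factors, neuron products) with a higher day mean of 1 FPKM or more, and the 3 genes most alike to each member. A gene that this rule names is not reported here. The members, lists, pairs, marker lists and tests were chosen with earlier results of these data known. Alternatives were the pseudocount, filter, scaling, trend, libraries of the 2 days alone, the replicate block, sets of day-0 libraries and each library left out.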

Additional observations from a re-analysis of the deposited data

Results flagged for a closer look

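Pax3 in day-0 replicate 6 read 0.38 FPKM and stood apart from the other 6 libraries of that day, the next highest of which read 0.15; the gap was 0.767 of the range of the group. It was the only such value among 29 groups of a gene and day, and chance gives about 1 in 20 groups. All day-0 values of Pax3 were below those of day 4.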

How the results depend on the processing

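Over 32 alternatives, the 90 changes of single genes gave 2762 values. Of these, 2744 kept their side of the threshold and, if called in the main analysis, their direction. Leaving out a library of a day outside a comparison cannot move its log2 change, so many of the 2744 kept their direction by design. Of the rest, 7 lost their call, 8 gained one and 3 were called changes whose sign turned. Irx5 from day 2 to day 10 turned with libraries of the same sum (0.18). Shh from day 4 to day 10 (-0.051) and Irx3 from day 0 to day 20 (-0.38) turned with quantile normalization. Among the 8 gained, Pax6 from day 0 to day 20 also changed sign, from 0.14 to -0.67 with quantile normalization. Sign changes of values called neither before nor after were not counted. The cause of these changes was not tested. The number of the 10 genes called stayed between 8 and 9 with any library left out from day 0 to day 2, and at 9 for the later steps. With a pseudocount of 0.1 the Pax3 to Pax7 difference was 0.81 from day 4 to day 10, now called, and -0.70 from day 10 to day 20, no longer called (adjusted p = 0.07256).

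With each library left out in turn, the day-10 minus day-4 difference ranged from -0.64 to -0.58 for Irx3 to Irx5, from -2.90 to -2.78 for Dbx1 to Dbx2, from -5.13 to -5.03 for Nkx6-1 to Nkx2-2 and from 0.048 to 0.22 for Pax3 to Pax7. The first 3 were not called without any 1 day-4 library (adjusted p = 0.06349), where 2 libraries against 5 allow no smaller p, and the last was called without day-10 replicate 5 (adjusted p = 0.03265). Replicate numbers did not pair the samples, since same-numbered libraries correlated at -0.146 to 0.219 in their deviations; with the replicate block all 9 genes remained called at each of the 4 steps, Nkx2-2 from day 0 to day 2 moved from -0.79 to -0.51, and Nkx2-2 at day 4 was called above day 0 (0.48, adjusted p = 0.00759). A pseudocount of 0.1 moved many changes from low levels by over 1.5 times, such as Dbx1 from day 0 to day 2 from 5.39 to 8.54. Low values limit Pax7, Pax3 and early Shh most, since their depth is unknown.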
